A study of Mus musculus with 22 samples.

Results

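The genes described here were 10 genes of cell adhesion and of the epithelial to mesenchymal transition. They are the cadherins Cdh1 and Cdh2, the adhesion molecules Epcam and Ncam1, the intermediate filament protein Vim, and the transcription factors Snai1, Snai2, Twist1, Zeb1 and Zeb2. They were chosen by name, and each was measured by its probe set with a single gene symbol, taking the one with the highest mean where a gene had several. All 10 of the 10 had a single such probe set, out of 19938 genes measured, and all 10 had a mean above 6.20 on the log2 scale, the level that marks the dimmest 25% of genes.

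The data are 22 arrays of the Affymetrix Mouse Gene ST type, 1 per sample. All samples, including those called normal, carried the RIP1-TAG2 genotype, in which beta cells of the pancreas make the T antigen of a tumour virus under the rat insulin promoter, so that neuroendocrine tumours (PanNETs) grow from islets. The groups were 3 normal islets, 3 hyperplastic islets, 3 angiogenic islets (islets with vessel ingrowth), 5 islet tumours, 5 met-like primaries (primary tumours so labelled) and 3 liver metastases. No label gives the age of the mice, which samples came from separate animals or how a primary tumour was called met-like, so p-values measure only the spread between these samples. Titles carry a code, which is used to name single arrays: islets have I-93 or a year (as in Normal2006 and Normal2007), tumours begin with I-98, II-64 or III-80, and all 3 metastases begin with I-98. Most islet tumours and met-like primaries begin with II-64 or III-80, so code and tissue cannot be fully told apart in comparisons with metastases. Values are log2 intensities, in which a step of 1 is a doubling, and differences carry the standard error (SE) of the limma fit over all 22 arrays. A gene was called changed where its p, adjusted by Benjamini-Hochberg over all 19938 genes, was below 0.05.

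Epithelial cells hold together through E-cadherin, the product of Cdh1, which binds catenins and the actin skeleton, and through tight junctions and desmosomes. In the epithelial to mesenchymal transition, transcription factors of the Snail, Twist and Zeb families repress these genes, while N-cadherin (Cdh2), vimentin and matrix genes are often raised. In islets, E-cadherin joins beta cells to each other, N-cadherin and NCAM are present in normal endocrine cells too, and loss of E-cadherin has been tied to invasion in this mouse strain.

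Cdh1 and Epcam were lower in met-like primaries than in islet tumours by more than 3-fold each and stayed low in liver metastases, whereas Ncam1, Zeb1 and Snai2 were higher. Cdh2 was also lower, though by far less, and Snai1, Twist1, Zeb2 and Vim were not called. In all, 6 of the 10 genes were called between these groups, 3 in each direction, where 26.5% of all genes were called. Vim and Zeb2 followed another course with their highest group means in angiogenic islets.

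**Figure D1:**
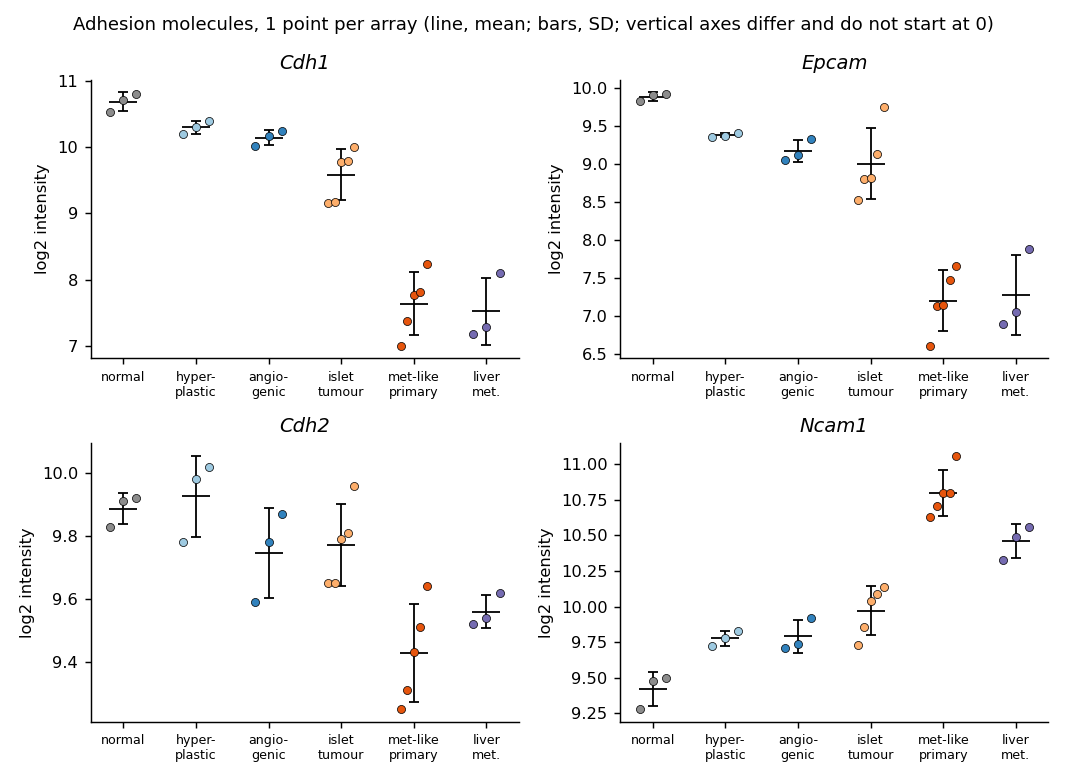
Log2 intensity of Cdh1, Epcam, Cdh2 and Ncam1 in 22 arrays, by tissue group, with 1 point per array, the group mean as a line and the SD as bars. Cdh1 lay between 7.0 and 8.24 in met-like primaries and between 9.16 and 10 in islet tumours, and Ncam1 took the opposite course.

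Cdh1 read 7.0, 7.81, 8.24, 7.38 and 7.76 in the 5 met-like primaries, against 9.16, 9.18, 9.77, 10 and 9.80 in the 5 islet tumours. The lowest islet tumour was thus above the highest met-like primary. The difference was -1.94 ± 0.20 (SE), or 3.84-fold lower, with an adjusted p of 2.57e-07. Within each title code the difference pointed the same way, at -2.16 for I-98 (1 array against 1), -1.45 for II-64 and -2.33 for III-80 (2 against 2 each). The 3 liver metastases read 7.18, 7.28 and 8.10, within the range of the met-like primaries. Their mean differed from that of met-like primaries by -0.12, with a 95% interval from -0.61 to 0.37, and from that of islet tumours by -2.06 ± 0.24 (adjusted p = 6.39e-07).

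Cdh1 was already lower in islet tumours than in normal islets. Normal islets read 10.72, 10.53 and 10.81, hyperplastic islets 10.40, 10.31 and 10.20, and angiogenic islets 10.17, 10.02 and 10.24. Islet tumours were lower than normal islets by -1.10 ± 0.24 (adjusted p = 0.00106), and no islet tumour reached the level of any normal islet. Met-like primaries stood 8.27-fold below normal islets. No single step between islet stages was called for Cdh1 in the fit over all groups.

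Epcam, which encodes a homophilic adhesion molecule of epithelia, moved with Cdh1. It read 6.61, 7.14, 7.66, 7.13 and 7.48 in met-like primaries, against 8.81, 8.53, 8.80, 9.75 and 9.13 in islet tumours. The groups did not overlap, and the difference was -1.80 ± 0.21 (3.48-fold lower, adjusted p = 8.45e-07). Liver metastases read 7.05, 6.90 and 7.88, overlapping the met-like primaries, with a difference from them of 0.07 and an interval from -0.42 to 0.57. Metastasis I-9822 was the highest of the 3 for both Cdh1 and Epcam, and islet tumour III-8017 was the highest of its group for both. After the group means were removed, the deviations of the 2 genes over the 22 arrays had a Pearson r of 0.86, as a description of points that share an array. In islet tumours Epcam was lower than in normal islets by -0.88 ± 0.24 (adjusted p = 0.00754), and the 3 normal islets, at 9.82, 9.92 and 9.91, were above every other array.

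The region just before the start of Epcam is shown because Snail and Zeb factors bind the letters CAGGTG, or CACCTG when read on the other strand, and both spellings occur in it. The 250 bases come from RefSeq (mouse build GRCm38.p6), chr17:87635729-87635978, plus strand, with the motif letters in capitals.
Epcam: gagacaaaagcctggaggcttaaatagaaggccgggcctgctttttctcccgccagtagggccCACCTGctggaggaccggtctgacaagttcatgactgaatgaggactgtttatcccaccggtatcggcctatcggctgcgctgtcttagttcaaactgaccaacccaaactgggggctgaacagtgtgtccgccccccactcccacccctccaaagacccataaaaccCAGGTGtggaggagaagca
The first match begins 187 bases before the start and the last 19 bases before it. CAGGTG or CACCTG, searched on both strands and each a form of the wider E-box CANNTG, was found in 17.2% of all 32851 promoter windows of 250 bases (5657 of them). Of the 5 genes described here with an entry in that table (Epcam, Vim, Snai1, Twist1 and Zeb2), 2 held a match, Epcam and Snai1. Cdh1, Cdh2, Ncam1, Snai2 and Zeb1 had no entry. A match in these letters is a description of the sequence and not a measured binding site.

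Other epithelial genes were lower alongside Cdh1 and Epcam. Of 23 measured genes of junctions and epithelial regulation, 13 fell and 0 rose in met-like primaries against islet tumours, where 26.5% of all genes were called in either direction. Their median difference was -0.49, against -0.02 over all genes. Esrp1, a splicing regulator of epithelial isoforms, had the lowest adjusted p, with a mean of 6.76 in met-like primaries and 9.19 in islet tumours (difference -2.43 ± 0.20, adjusted p = 8.61e-09). The desmosomal plaque gene Pkp2 differed by -0.93, the tight junction gene F11r (JAM-A) by -1.30 and the keratin gene Krt8 by -1.18. Of the catenins, which tie cadherins to actin, Ctnna1 was lower by -0.60 ± 0.10 (adjusted p = 0.00015), while Ctnnb1 and Ctnnd1 were not called.

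Islet tumours had 14 of these 23 genes lower and 1 higher than normal islets, where 29.0% of all genes were called. These included the claudin gene Cldn7 (-1.78 ± 0.14, adjusted p = 7.7e-09) and the vesicle transport gene Rab25 (-1.89 ± 0.30). The 1 higher gene was Jup, which encodes plakoglobin (0.55 ± 0.11). The comparison of met-like primaries with islet tumours and that of islet tumours with normal islets share the islet tumour arrays. Between liver metastases and met-like primaries 2 of the 23 were lower, Jup and the tight junction gene Cgn, and 0 were higher, where 15.7% of all genes were called.

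**Figure D2:**
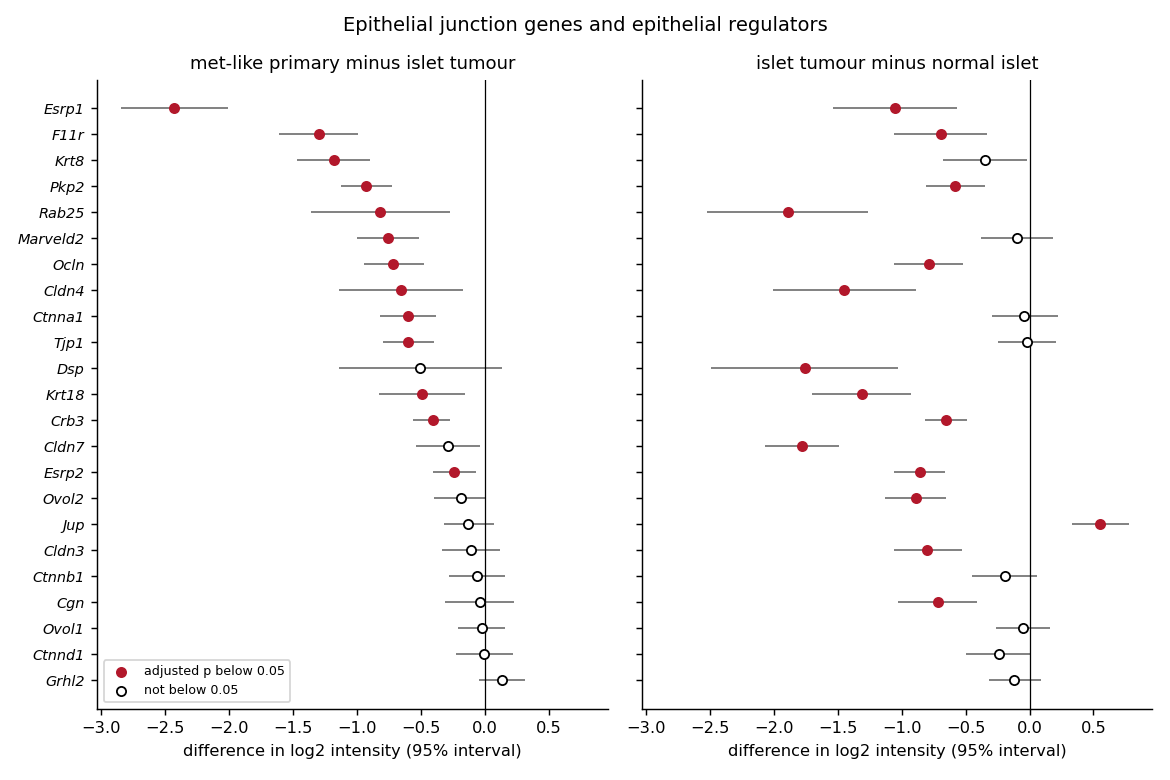
Difference in log2 intensity with its 95% interval for 23 epithelial junction genes and regulators, in met-like primaries minus islet tumours (left) and islet tumours minus normal islets (right). Filled points mark an adjusted p below 0.05, and Esrp1 stands lowest on the left at -2.43.

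Cell content also differed between these groups, and in bulk tissue fewer cells of a type and less RNA per cell cannot be told apart. Of 10 beta cell markers, 9 were lower in met-like primaries than in islet tumours, with a list mean of 8.64 to 9.25 in met-like primaries and 10.52 to 11 in islet tumours. Of 10 endothelial markers 8 were lower, of 8 pericyte markers 3, of 6 ductal markers 1 and of 9 lymphocyte markers 0, and none of these rose. Of 11 fibroblast markers 2 were higher and 0 lower, and of 11 macrophage markers 1 was higher and 1 lower. Over all genes 26.5% were called between these groups, in either direction. The ductal, lymphocyte, fibroblast and macrophage counts did not exceed that share. Of 10 hepatocyte markers 3 were higher in met-like primaries, Alb (2.33 ± 0.71), Trf (1.91 ± 0.23) and Apoc3 (1.39 ± 0.22), and 1 was lower, Tat (-1.77 ± 0.18). The mean of 9 acinar markers spanned 9.51 to 11.21 in met-like primaries and 10.40 to 10.85 in islet tumours, so the exocrine signal overlapped. Among these markers only Bhlha15 was called, at -0.48 ± 0.17 (limma adjusted p = 0.0456). With the acinar mean of each array as a covariate, the Cdh1 difference was -1.93 (adjusted p = 3.9e-07) and the Epcam difference -1.79 (adjusted p = 1.17e-06). All 10 hepatocyte markers were higher in liver metastases than in met-like primaries, where 15.7% of all genes were called. Their list mean was 10.28 to 10.69 in metastases and 6.99 to 7.48 in met-like primaries. After removal of group means, the r over the 22 arrays with the beta cell mean was 0.7 for Cdh1 and 0.75 for Epcam, as a description. With the acinar mean it was 0.21 and 0.24, with the endothelial mean 0.22 and -0.02, and with the hepatocyte mean -0.2 and -0.22. Hepatocytes express Cdh1 and Cdh2 as well, and the part of beta cell, endothelial and liver cell content in the values of these genes was not tested.

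Cdh2 did not rise as Cdh1 fell. N-cadherin RNA read 9.64, 9.43, 9.31, 9.25 and 9.51 in met-like primaries, against 9.65, 9.65, 9.96, 9.81 and 9.79 in islet tumours. The groups sat next to each other without overlap, and the difference was -0.34 ± 0.08 (adjusted p = 0.00247). By title code it was -0.01 for I-98, -0.43 for II-64 and -0.42 for III-80. Met-like primaries were also below normal islets, which read 9.91, 9.83 and 9.92, by -0.46 ± 0.09 (adjusted p = 0.000357). Liver metastases, at 9.62, 9.54 and 9.52, were not called against met-like primaries or islet tumours. All neighbouring groups in the order of Cdh2 means overlapped.

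Among 18 other cadherins, 4 rose and 3 fell in met-like primaries against islet tumours, where 26.5% of all genes were called. The mesenchymal cadherin Cdh11 averaged 9.36 in met-like primaries and 7.86 in islet tumours (1.5 ± 0.14, adjusted p = 7.14e-08). Cdh13, which lacks a transmembrane domain and is anchored by a lipid, was higher by 1.08 ± 0.10, and Cdh20 by 1.22 ± 0.14. The lower ones were Cdh7 (-1.99 ± 0.19), Cdh8 (-2.27 ± 0.30) and the endothelial cadherin Cdh5 (-0.82 ± 0.10). In liver metastases against met-like primaries 0 of the 18 rose and 2 fell, where 15.7% of all genes were called. Cdh20 was among the lower ones at -1.14 ± 0.16. The part of liver cell content in these values was not tested.

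Ncam1, an immunoglobulin-type adhesion molecule of neural and endocrine cells, was higher in met-like primaries. It read 10.71, 10.80, 10.63, 11.06 and 10.80 in met-like primaries, against 10.04, 9.73, 10.09, 9.86 and 10.14 in islet tumours. Every met-like primary exceeded every islet tumour, by 0.83 ± 0.09 on average (1.78-fold, adjusted p = 3.2e-07). The differences by title code were 0.67 for I-98, 0.80 for II-64 and 0.93 for III-80. Normal islets read 9.48, 9.28 and 9.50, below all other arrays, and islet tumours exceeded them by 0.55 ± 0.10 (adjusted p = 0.000274). Against normal islets, met-like primaries were 2.60-fold higher. Of 4 measured markers of Schwann cells and glia, which carry much NCAM, 0 were called between met-like primaries and islet tumours. Over all genes 26.5% were called there.

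Ncam1 was the 1 gene of the 10 called between liver metastases and met-like primaries, where 15.7% of all genes were called. Metastases read 10.49, 10.56 and 10.33, just below the lowest met-like primary, and differed by -0.34 ± 0.10 (adjusted p = 0.0289). That call was lost without metastasis I-9820 (adjusted p = 0.0676) or I-9822 (0.164), without met-like primary II-648 (0.0515) or III-8016 (0.0609), and in a fit of only the arrays compared. Metastases remained above islet tumours by 0.49 ± 0.10 (adjusted p = 0.000663). The hepatocyte list mean was 10.28 to 10.69 in metastases and 6.99 to 7.48 in met-like primaries. The part of liver cell content in the Ncam1 values was not tested.

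Relatives of Ncam1 moved in both directions. Of 17 measured immunoglobulin-type adhesion genes, 7 rose and 3 fell in met-like primaries against islet tumours, where 26.5% of all genes were called, with a median difference of 0.41. Ncam2 averaged 8.39 in met-like primaries and 5.55 in islet tumours (2.85 ± 0.26, adjusted p = 3.91e-08). The nectin-like gene Cadm3 averaged 8.90 in met-like primaries and 6.65 in islet tumours (2.26 ± 0.12, adjusted p = 1.29e-11), and Cadm1 was higher by 0.79 ± 0.09. The laminin receptor gene Bcam was lower by -0.76 ± 0.10 and Cntn1, which encodes contactin, by -2.0 ± 0.34. In liver metastases against met-like primaries 7 of the 17 fell, against 15.7% of all genes called, Cadm1 and Cadm3 among them, and 1 rose, Ncam2 (0.92 ± 0.30, adjusted p = 0.0443). St8sia2, one of the 2 enzymes that add polysialic acid to NCAM, rose by 0.58 ± 0.16 in met-like primaries against islet tumours (adjusted p = 0.00942) and by a further 0.64 ± 0.19 in metastases. St8sia4 was not called in either. The part of liver cell content in the values of metastases was not tested for any of these genes.

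**Figure D3:**
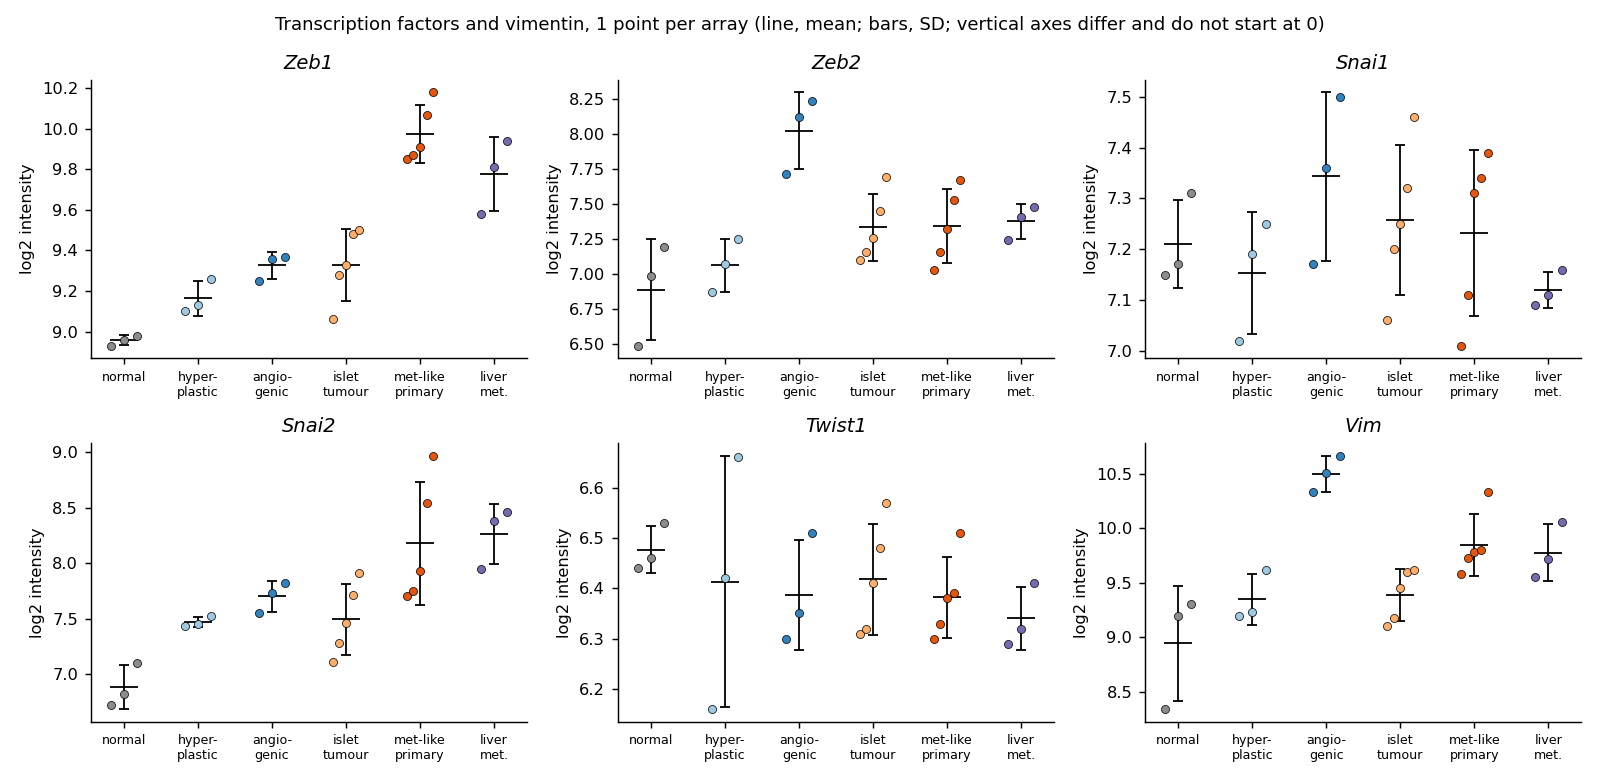
Log2 intensity of Zeb1, Zeb2, Snai1, Snai2, Twist1 and Vim in 22 arrays, by tissue group, with 1 point per array, the group mean as a line and the SD as bars. Zeb1 lay between 9.85 and 10.18 in met-like primaries and between 9.06 and 9.50 in islet tumours, while Zeb2 and Vim had their highest group means in angiogenic islets.

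Of the 5 transcription factors, Zeb1 and Snai2 were higher in met-like primaries than in islet tumours. Zeb1, a zinc finger repressor of Cdh1, read 9.87, 9.85, 9.91, 10.18 and 10.07 in met-like primaries, against 9.28, 9.50, 9.48, 9.06 and 9.33 in islet tumours. The groups did not overlap, and the difference was 0.64 ± 0.09 (1.56-fold, adjusted p = 6.92e-06). Liver metastases read 9.81, 9.94 and 9.58 and also lay above every islet tumour (0.44 ± 0.10, adjusted p = 0.00139). Normal islets read 8.93, 8.98 and 8.96, the lowest of all 22 arrays, and islet tumours exceeded them by 0.38 ± 0.10 (adjusted p = 0.00642). The order of the Zeb1 group means was thus normal, hyperplastic, angiogenic and islet tumour, then metastasis and met-like primary, with overlap between the angiogenic islets and both of their neighbours and between metastases and met-like primaries. Deviations of Zeb1 from its group means had an r of -0.53 with those of Epcam and -0.43 with those of Cdh1 over the 22 arrays.

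Snai2, the gene of Slug, read 7.75, 7.93, 7.70, 8.97 and 8.54 in met-like primaries, against 7.28, 7.91, 7.46, 7.11 and 7.71 in islet tumours. The ranges overlapped, and the 2 highest arrays were met-like primaries III-8016 and III-8023. The difference was 0.69 ± 0.20 (adjusted p = 0.0122), made up of 0.47 for code I-98, 0.13 for II-64 and 1.34 for III-80. The call was lost in a fit of only the compared arrays (adjusted p = 0.0624) and with array weights (0.0563). Metastases, at 8.46, 7.95 and 8.38, were above all islet tumours (0.77 ± 0.23, adjusted p = 0.0108), a call lost without metastasis I-9820 (0.0609). Islet tumours were higher than normal islets by 0.62 ± 0.23 with an adjusted p of 0.0473, and this call was lost without any of Normal2006 (0.171), Normal2007 (0.121) and islet tumours II-649 (0.11), II-6415 (0.0635) and III-8024 (0.0933). The same call was lost with quantile normalization (0.0686), median centring (0.0679), trended robust variance (0.0567) and the random replicate block (0.0659). Against normal islets, at 7.10, 6.72 and 6.82, met-like primaries were 2.47-fold higher (adjusted p = 7.25e-05).

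Snai1 and Twist1 were called in 0 of the 8 comparisons, and had an unadjusted limma p below 0.05 in 0 of them. Snai1, which encodes the Snail repressor, ranged from 7.01 to 7.39 in met-like primaries and from 7.06 to 7.46 in islet tumours. Its difference there was -0.03, with an interval from -0.21 to 0.15. Twist1, a helix-loop-helix factor, ranged from 6.30 to 6.51 in met-like primaries and from 6.31 to 6.57 in islet tumours, with a difference of -0.04 and an interval from -0.20 to 0.13. By mean intensity Twist1 stood at percentile 29 of all genes and Snai1 at percentile 45.2. Of 11 other transition factors measured, 3 rose and 0 fell in met-like primaries against islet tumours, a share near the 26.5% of all genes. These were Twist2 (0.86 ± 0.20, adjusted p = 0.0024), Tcf4 (0.85 ± 0.10, adjusted p = 8.46e-07), and Foxc1 (1.06 ± 0.39, adjusted p = 0.0488).

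MicroRNAs of the miR-200 family repress Zeb1 and Zeb2, and their mature sequences are shown because the family falls into 2 groups by seed, the bases 2 to 8 given in capitals. Sequences are those of RefSeq on build GRCm38.p6, with Mir141 and Mir200c on chromosome 6 and Mir200a, Mir200b and Mir429 on chromosome 4.
miR-141-3p: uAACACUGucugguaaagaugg
miR-200a-3p: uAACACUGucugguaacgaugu
miR-200b-3p: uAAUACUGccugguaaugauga
miR-200c-3p: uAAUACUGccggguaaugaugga
miR-429-3p: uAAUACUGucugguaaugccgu
The arrays carry probe sets for the hairpin genes, which measure precursor or host transcripts and not mature microRNA. The pair on chromosome 6 was lower in tumours. Mir141 averaged 5.58 in islet tumours and 6.53 in normal islets, and fell by 0.95 ± 0.12 (adjusted p = 2.87e-06). Mir200c averaged 7.10 in islet tumours and 7.61 in normal islets (-0.51 ± 0.11, adjusted p = 0.00143). Neither was called between met-like primaries and islet tumours. Mir200a was lower in met-like primaries by -0.34 ± 0.08 (adjusted p = 0.003) but higher in islet tumours than in normal islets by 0.28 ± 0.09 (adjusted p = 0.0261), and Mir200b and Mir205, a miRNA of other sequence that also represses both genes, were called in 0 of the 8 comparisons. Mir429 was not analysed here. The group means of Mir200b (5.50 to 5.86) and Mir205 (5.07 to 5.37) lay below 6.20, the level of the dimmest 25% of genes, in all 6 groups. Mir200a averaged 5.98 to 6.52 over the groups, on both sides of that level, and Mir141 averaged below it in angiogenic islets, islet tumours, met-like primaries and metastases. Mir200c averaged 6.90 to 7.62, above it in all 6 groups.

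Vim and Zeb2 were the 2 genes of the 10 that were called at the angiogenic step, where 2.53% of all genes were called. Vim read 10.66, 10.51 and 10.33 in angiogenic islets, against 9.62, 9.19 and 9.23 in hyperplastic islets. The difference was 1.15 ± 0.22 (2.22-fold, adjusted p = 0.00416). Zeb2 read 8.23, 8.12 and 7.71 in angiogenic islets, against 7.25, 6.87 and 7.07 in hyperplastic islets (0.96 ± 0.19, 1.94-fold, adjusted p = 0.00566). Neither pair of groups overlapped. The same 2 groups were also separate for Epcam (-0.21, adjusted p = 0.79) and Snai2 (0.23, adjusted p = 0.748), which were not called.

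Both genes were lower again in islet tumours, and no other of the 10 was called at that step, where 9.54% of all genes were called. Vim read 9.10, 9.60, 9.45, 9.62 and 9.18 in islet tumours, a difference of -1.11 ± 0.20 from angiogenic islets (adjusted p = 0.0012). Zeb2 read 7.45, 7.26, 7.10, 7.16 and 7.69 in islet tumours and differed by -0.69 ± 0.17 (adjusted p = 0.0135). The Zeb2 call was lost without angiogenic islet I-93 (0.114) or Angiogenic2006 (0.0666). In angiogenic islets against hyperplastic islets 9 of 16 mesenchymal effector genes rose and 0 fell, where 2.53% of all genes were called, with a median of 0.70. These included the matrix genes Fn1 (2.27 ± 0.22) and Sparc (1.16 ± 0.16), the matrix protease gene Mmp14 (1.36 ± 0.18) and the integrin gene Itga5 (0.86 ± 0.11).

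Markers of stromal and vascular cells moved with Vim and Zeb2, which such cells also express. Of 11 fibroblast markers 10 rose in angiogenic islets against hyperplastic islets, where 2.53% of all genes were called in either direction. The fibroblast list mean was 9.50 to 9.72 in angiogenic islets and 8.09 to 8.13 in hyperplastic islets. Of 11 macrophage markers 9 rose, with a list mean of 8.05 to 8.71 in angiogenic islets and 7.44 to 7.60 in hyperplastic islets. Of 10 endothelial markers 5 rose and 0 fell, with a list mean of 8.71 to 9.10 in angiogenic islets and 8.22 to 8.31 in hyperplastic islets. Of 8 markers of pericytes and smooth muscle 4 rose and 0 fell, with a list mean of 8.82 to 9.46 in angiogenic islets and 7.72 to 8.51 in hyperplastic islets. The parts of macrophages, endothelium and pericytes in the Vim and Zeb2 values were not tested. With the fibroblast mean, which did not overlap between these groups, as a covariate, limma called 0 of the 19938 genes at this step (1311 had an unadjusted p below 0.05), the Vim difference was 0.65 (adjusted p = 0.881) and the Zeb2 difference 0.07 (adjusted p = 0.998). With the same covariate, the Zeb2 difference between islet tumours and angiogenic islets was 0.08, opposite in sign (adjusted p = 0.962). After removal of group means, Zeb2 had an r over the 22 arrays of 0.53 with the fibroblast mean, 0.60 with the endothelial mean and 0.59 with the macrophage mean, as a description. For Vim these were 0.26, 0.35 and -0.13.

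**Figure D4:**
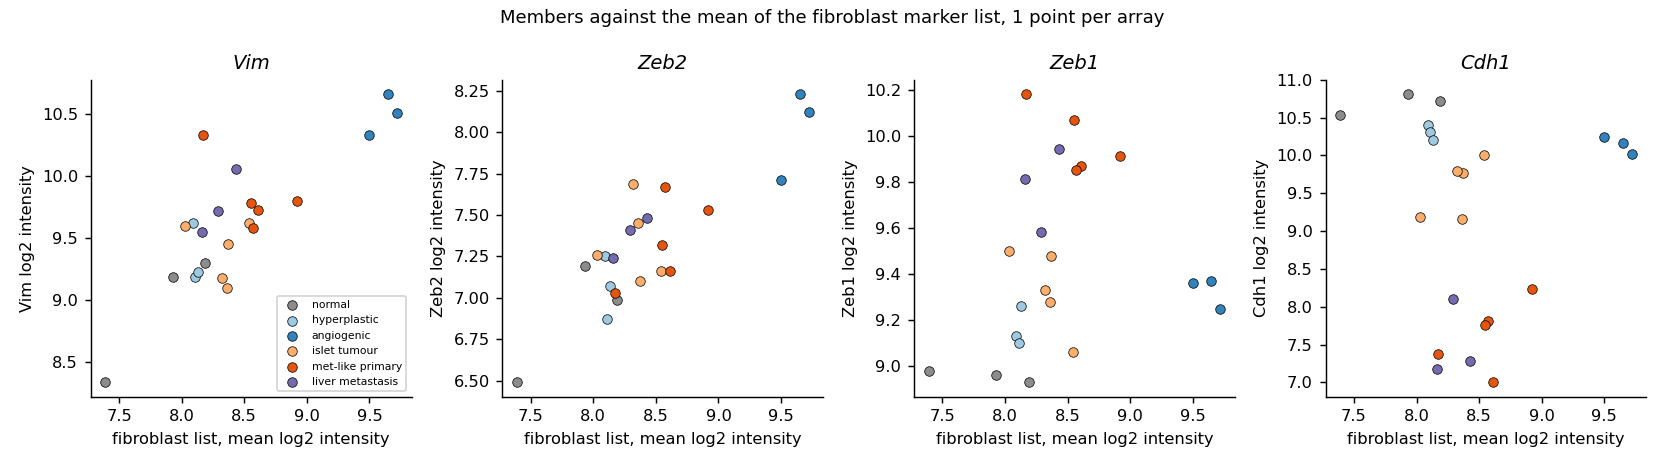
Log2 intensity of Vim, Zeb2, Zeb1 and Cdh1 (vertical axes) against the mean log2 intensity of 11 fibroblast markers (horizontal axes) in 22 arrays, coloured by tissue group. The 3 angiogenic islets lie at 9.50 to 9.72 on the horizontal axis and have the highest group mean of Vim and Zeb2, while met-like primaries have the highest group mean of Zeb1 and lie at 8.17 to 8.92.

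Among tumours Vim and Zeb2 differed less. Vim read 9.73, 9.58, 9.80, 10.33 and 9.78 in met-like primaries, higher than islet tumours by 0.46 ± 0.17, which missed the threshold (adjusted p = 0.0537) and passed it under 9 of 22 alternatives (0.0341 to 0.049). Zeb2 read 7.16, 7.67, 7.53, 7.03 and 7.32 in met-like primaries and differed from islet tumours by 0.01, with an interval from -0.30 to 0.32. The fibroblast mean was 8.17 to 8.92 in met-like primaries and 8.03 to 8.54 in islet tumours, and with it as a covariate the Zeb1 difference was 0.71 (adjusted p = 4.2e-06) and the Cdh1 difference -2.11 (adjusted p = 1.94e-07). Of 16 mesenchymal effectors, 3 rose and 3 fell between these groups, where 26.5% of all genes were called. The gelatinase gene Mmp2 was higher by 1.59 ± 0.17, and the hyaluronan receptor gene Cd44 was lower by -1.42 ± 0.29.

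Set against normal islets, 8 of the 10 genes were called in met-like primaries, 5 higher and 3 lower, where 42.8% of all genes were called. The higher ones were Ncam1, Vim, Snai2, Zeb1 and Zeb2, and the lower ones Cdh1, Cdh2 and Epcam. Vim was higher by 0.90 ± 0.20 (adjusted p = 0.000713), and Zeb2, whose groups overlapped, by 0.45 ± 0.17 (adjusted p = 0.036). The Zeb2 call was lost without Normal2006 (0.3) or met-like primary II-648 (0.0919), II-6413 (0.0756) or III-8023 (0.0504). It was also lost with quantile normalization (0.0662), median centring (0.0614), the random replicate block (0.0501) and only the compared arrays (0.0696). With the fibroblast covariate the differences became 0.66 for Vim (adjusted p = 0.0961) and 0.02 for Zeb2 (adjusted p = 0.958). In islet tumours against normal islets 5 were called (Ncam1, Snai2 and Zeb1 higher, Cdh1 and Epcam lower), where 29.0% of all genes were called. In liver metastases against islet tumours the same 5 genes were called in the same directions, where 36.6% of all genes were called. The medians of the 10 differences in these 3 comparisons were 0.24, 0.21 and -0.02, against -0.02, -0.01 and -0.03 over all genes. With the acinar covariate, Ncam1 (adjusted p = 0.0593), Snai2 (0.214) and Zeb1 (0.0715) lost their calls between liver metastases and islet tumours. The mean of 9 acinar markers was 8.84 to 9.44 in metastases and 10.40 to 10.85 in islet tumours.

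**Figure D5:**
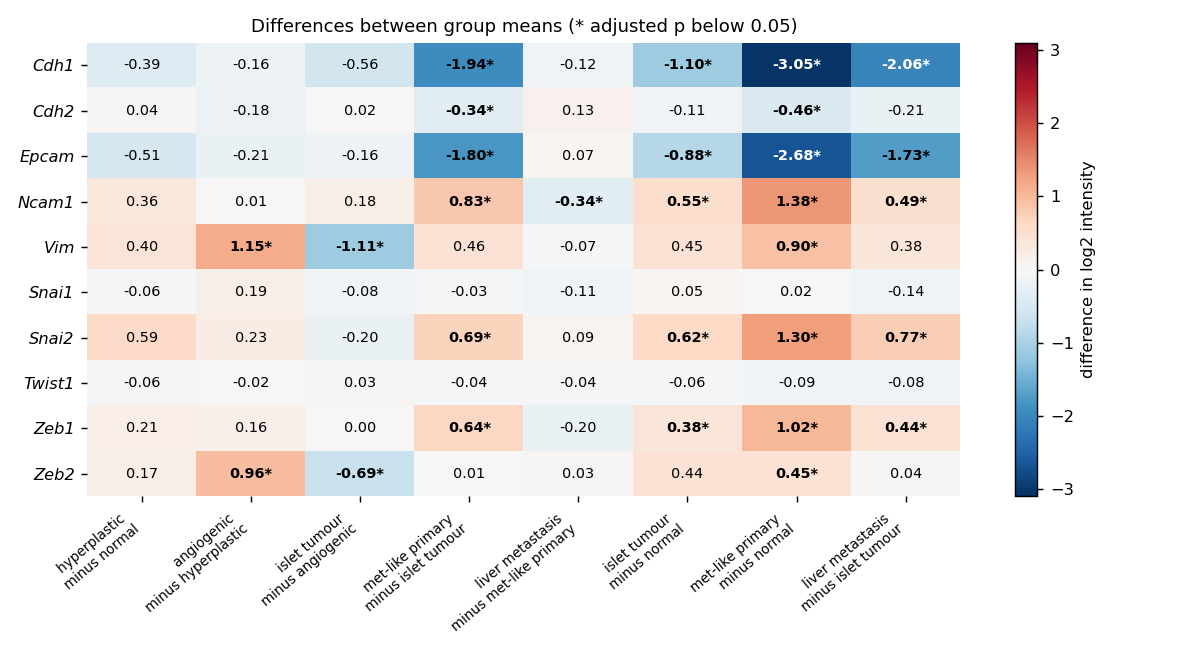
Difference in log2 intensity between group means for the 10 genes (rows) in 8 comparisons (columns, first named group minus second), with blue for lower, red for higher and an asterisk for an adjusted p below 0.05. Cdh1 and Epcam are lower and Ncam1, Zeb1 and Snai2 higher in met-like primaries, and the Snai1 and Twist1 rows carry no asterisk.

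At the first step, hyperplastic against normal islets, 0 of the 10 genes were called, where 8.64% of all genes were called. At an unadjusted p below 0.05, Ncam1 was higher by 0.36 ± 0.11 (adjusted p = 0.0562) and Snai2 by 0.59 ± 0.26 (adjusted p = 0.18). The replicate codes paired these islets, and with the code as a block in a fit of the islets, limma called 4 of the 10 and 13.0% of all genes. Cdh1 then fell by 0.39 (adjusted p = 0.0279) and Epcam by 0.51 (0.00785), while Ncam1 rose by 0.36 (0.0193) and Snai2 by 0.59 (0.00316). The ranges of all 4 genes were separate between the 2 groups. Those of Zeb1, which was not called, were separate too (adjusted p = 0.3 without the block). The share of all genes with separate ranges is not given here. Of the 23 epithelial genes 6 fell at this step without the block (8.64% of all genes), among them Cldn7 (-1.06 ± 0.16) and Esrp2, a relative of Esrp1 (-0.54 ± 0.11).

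The genes most like each of the 10 across the 22 arrays were ranked by Pearson r, group differences included. Esrp1 came first for both Cdh1 (r = 0.992) and Epcam (0.991), and Cdh1 was second for Epcam (0.983). Cdh2 was most like Tm4sf4 (0.89), Ncam1 like Frmd4a (0.977) and Zeb1 like Hip1 (0.959). Snai2 was most like Dcbld2 (0.906), Vim like Msn (0.875), which encodes moesin, and Zeb2 like the matrix protease gene Mmp14 (0.866). For Snai1 and Twist1 the highest values were lower, 0.744 with Dcst2 and 0.761 with Vmn1r15. These values describe shared ups and downs of the groups, and no p is given for them.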

How the data were processed

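The deposited table holds log2 intensities from 22 arrays, processed by the authors with aroma.affymetrix per the series text. Its version, normalization and summarization were not stated there. The unit was read from the values, whose array medians were 7.08 to 7.22. Of 35511 probe sets, 23410 were listed in the gene table, 21789 of them with 1 symbol and 1621 with several, which were left out. The probe set with the highest mean was kept per gene, leaving 19938 genes. Arrays have no read depth, and their number limits the precision. No 2 arrays were identical (highest correlation 0.9951).

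All arrays were fitted with limma 3.58.1 (R 4.3.3), 1 mean per group, with its two-sided moderated test for 8 comparisons and Benjamini-Hochberg adjustment over all genes. The test was checked on simulated data. Named genes are the 10 genes and, of each list, up to 4 called genes with the lowest adjusted p, plus others chosen after their values were seen. The 10 genes, the lists and the comparisons were chosen with earlier results of these data known, and the microRNA list after seeing the files. The main fit did not pair samples by code, which entered only alternative fits, as a replicate block. It was checked whether same-code deviations from the group means correlated across genes. They did in hyperplastic and normal islets (0.197 to 0.448) and in angiogenic and hyperplastic islets (0.353 to 0.479), but not in tumours. The main p-values at these islet steps thus leave out that pairing. Promoter and microRNA sequences are RefSeq's, matched by symbol. Figures used matplotlib 3.10.9.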

Additional observations from a re-analysis of the deposited data

How the results depend on the processing

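Of 29 called differences of the 10 genes, 10 stayed called in the same direction in all alternatives, 19 lost the call in at least 1, and of 1550 alternative values 1 called difference turned sign, that of Zeb2 between islet tumours and angiogenic islets with the fibroblast covariate (0.08). Uncalled differences changed sign 68 times. Cdh2, Ncam1 and Zeb1 in met-like primaries against islet tumours lost the call only where a difference of at least 1 log2 was required. So did Epcam, Ncam1 and Zeb1 in islet tumours against normal islets, and Cdh2 in met-like primaries against normal islets. That setting drops smaller differences whatever their p. A required difference of at least 1 log2 left 343 genes in hyperplastic against normal islets, 114 in angiogenic against hyperplastic islets, 243 in islet tumours against angiogenic islets, 745 in met-like primaries against islet tumours, 454 in liver metastases against met-like primaries, 905 in islet tumours against normal islets, 1907 in met-like primaries against normal islets and 1204 in liver metastases against islet tumours. Of the 10 genes it left 1, 1, 2, 0, 1, 5 and 2 in the last 7 of these.

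For hyperplastic against normal islets the fixed replicate block gave 2598 genes in place of 1722 and 4 of the 10 in place of 0. The count of the 10 was 1 with the random block, dim genes left out, array weights, the fibroblast or the acinar covariate, and 2 with only the compared arrays. For angiogenic against hyperplastic islets, 505 genes became 930 with array weights and 0 with the fibroblast covariate, and 275 to 869 when single arrays were left out (275 without Hyperplastic2006, 284 without Angiogenic2006, 316 without Hyperplastic2007, 869 without Angiogenic2007). The fibroblast covariate left 0 of the 10 there. For islet tumours against angiogenic islets, 1903 genes became 768 with only the compared arrays, 33 with the fibroblast covariate (0 of the 10) and 732 to 2228 with single arrays left out (732 without angiogenic islet I-93, 1025 without Angiogenic2006), and the 10 genes gave 1 to 2 calls. For liver metastases against met-like primaries, 3126 genes became 5377 with array weights, 1754 with the acinar covariate and 1950 to 3415 with single arrays left out (1950 without metastasis I-9821, 1988 without I-9822). The single call there, Ncam1, became 0 with the replicate block, only the compared arrays and median centring. For liver metastases against islet tumours the acinar covariate left 2 of the 10. The replicate block changed no call of the 10 in angiogenic against hyperplastic islets. In tumours the codes did not pair the arrays (-0.087 to 0.206). Over single arrays left out, the other counts of the 10 were 6 to 7 (met-like primaries against islet tumours), 4 to 6 (islet tumours against normal islets), 7 to 8 (met-like primaries against normal islets) and 4 to 5 (liver metastases against islet tumours). The causes of these changes were not tested. Median centring moved the share of higher calls to 37.9% in hyperplastic against normal islets, 76.6% at the angiogenic step, 51.7% in islet tumours against angiogenic islets and 33.9% in islet tumours against normal islets.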

Other observations

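Among genes of mesenchymal character, 9 of 16 were higher and 1 lower in islet tumours than in normal islets, where 29.0% of all genes were called. Fn1, which encodes fibronectin, averaged 9.57 in islet tumours and 7.34 in normal islets (2.24 ± 0.19, limma adjusted p = 2.2e-08), and the growth factor gene Tgfb1 averaged 8.78 in islet tumours and 7.47 in normal islets (1.31 ± 0.12, limma adjusted p = 5.28e-08). The 1 lower gene was S100a4, a gene often used to mark fibroblasts, at -0.36 ± 0.10. In the same comparison 6 of 11 fibroblast markers rose, among them Col1a1 (1.10 ± 0.23), and 7 of 11 macrophage markers rose, among them Cd68 (1.75 ± 0.17), with 0 lower in either list. The part of these cells in the values above was not tested.

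Between liver metastases and met-like primaries, 1 of the 16 was higher and 3 were lower, where 15.7% of all genes were called. Tgfbi, an extracellular protein gene induced by TGF-beta, averaged 10.16 in metastases and 9.03 in met-like primaries (1.13 ± 0.27, limma adjusted p = 0.00555). Of 11 other transition factors, Twist2 was higher in metastases by 0.72 ± 0.23 and Klf8 lower by -0.43 ± 0.09. The hepatocyte markers given for the metastases apply here too, and their part in these values was not tested.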
